A study of Mus musculus with 6 samples.

Results

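The genes encoding the proteins of the mitochondrial ribosome were examined in AE9a leukemia cells from 2 regions of the bone marrow. Members were all protein-coding genes whose symbol starts with Mrpl or Mrps followed by a digit, which gave 78 of the 54532 genes in the count table. By their known place in the particle, 26 belong to the small subunit and 51 to the large subunit. Mrps36 keeps its name but encodes a component of the 2-oxoglutarate dehydrogenase complex, and it was counted in neither subunit. Another 5 genes with matching names are annotated as processed pseudogenes and are not members.

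The mitochondrial ribosome, or mitoribosome, makes the small set of respiratory chain proteins that mitochondrial DNA encodes. Its rRNAs are transcribed inside the mitochondrion, whereas its proteins are encoded in the nucleus, translated in the cytosol and imported. Some of these proteins have counterparts in bacterial ribosomes and others are specific to mitochondria. Leukemia cells of the myeloid lineage are known to rely on mitochondrial translation for respiration.

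AE9a is AML1-ETO9a, a spliced form of the fusion gene of t(8;21) leukemia, and the model was made by infecting c-Kit+ marrow progenitors with an AE9a retrovirus and transplanting them into irradiated C57BL/6 mice. The cells sequenced were described as sorted and as coming from the third generation of transplants, and all 6 libraries carry AE9a, with no library from healthy marrow. The 3 central bone marrow (CBM) libraries came from cells flushed out of femurs and tibias. The 3 endosteal bone marrow (EBM) libraries came from cells that collagenase I released from the flushed bones, so the region and the digestion cannot be told apart. The recipients were young female mice, but their age when the cells were collected is not given in the sources used here. AE9a leukemia cells carry GFP, by which they were sorted for other assays of the study, and the gate used for these libraries is not given in those sources. The hosts keep their own stroma and some of their own blood formation. In bulk RNA, fewer cells of a type and less RNA per cell cannot be told apart.

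The libraries held between 16436526 and 19462964 counts on genes. A floor of 3 counts corresponded to between 0.149 and 0.193 CPM, the counts scaled by library size after TMM correction, and covers counting error only because reads copied by PCR are not independent molecules. The 6 marker genes of leukemia blasts and progenitors (Kit, Cd34, Runx1t1, Mpo, Spi1 and Myb) summed to between 641 and 684 CPM in CBM and between 669 and 685 CPM in EBM. The 5 erythroid markers summed to between 2096 and 5210 CPM in CBM and between 2422 and 3614 CPM in EBM, and the 6 neutrophil markers to between 3.32 and 223 CPM in CBM and between 34.3 and 160 CPM in EBM. The 7 osteoblast and stroma markers summed to at most 1.39 CPM, with Alpl and Sp7 at 0, and the B cell markers (Ms4a1 at 0), the T cell markers, the endothelial markers (Emcn at 0) and the macrophage markers to at most 4.06 CPM. The 3 megakaryocyte markers lay between 7.07 and 28.5 CPM. The part of the erythroid and neutrophil RNA in the differences below was not tested.

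Some short motifs stood more often in promoters of the members than in those of protein-coding genes at large, expressed here or not. RefSeq promoters of mouse build GRCm38.p6, from 250 bases before to 50 bases after a start site, were found for 69 of the 78 members, 75 promoters in all. Of these, 40 held at least 1 of 4 motifs searched (53.3%, against 21.1% of all promoters of protein-coding genes). The core CCGGAAG, which ETS factors such as GABPA bind, stood on either strand in 26 of the 75 promoters (34.7%), against 11.6% of all promoters of protein-coding genes. The letters AAGATGGCG, known from YY1 sites, stood in 8 (10.7% against 1.83%), and GCGCATGCG, known from NRF1 sites, in 7 (9.33% against 2.35%). The E-box CACGTG, which MYC and MAX bind, stood in 7 promoters of 5 genes (9.33% against 7.84%), and the 4 motifs did not overlap one another in any of these promoters. Over all promoters, those of other gene types included, the shares were 8.86%, 1.40%, 1.75% and 7.15% in the same order. GABPA and NRF1 are classical regulators of nuclear genes for mitochondrial proteins. A match to these letters is a description of the sequence and does not show that a factor binds there.

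The following windows of 30 bases show the ETS core in the promoters of the 2 members with the highest levels and in that of Mrps18a, the NRF1 letters in that of Mrpl9 and the E-box in that of Mrpl2. Each is written 5′ to 3′ on the strand of the gene, and capitals mark the matched bases.
Mrpl52, chr14:54426850-54426879, plus strand: tcaagatgtcggCTTCCGGttttcccggca
Mrpl34, chr8:71464877-71464906, plus strand: gaactacagctcCCGGAAGgccccgcggca
Mrps18a, chr17:46110966-46110995, plus strand: cacacccctgctCCGGAAGcggaagtgcac
Mrpl9, chr3:94443297-94443326, plus strand: gaggcgcagctGCGCATGCGCggggtcctt
Mrpl2, chr17:46646077-46646106, plus strand: gactgccgcccgtCACGTGacccgagcaac
In Mrpl52 the core lies on the opposite strand, from position -47 to position -41 relative to the start site. In Mrpl9 the match runs from -28 to -19 because GCGCATGCG reads the same letters shifted by 1 base on the other strand. The E-box of Mrpl2 is a single site that several annotated start sites share.

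Levels of different genes were compared per length, as counts divided by the gene length in the count table and scaled to the same sum in every library (TPM). The 77 members with counts had a median level of 47.1 TPM, with quartiles of 27.6 and 80.0, against a median of 21.2 TPM over all genes tested. Of all genes tested, 28.8% lay above the members' median. The cytosolic ribosomal protein genes, which build the ribosomes outside the mitochondrion, had a median of 1668 TPM. The large subunit genes had a median of 54.0 TPM and the small subunit genes one of 35.9 TPM, and the ranges of the subunits overlapped almost fully, from 10.1 to 278 TPM and from 7.09 to 179 TPM.

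Single proteins of the same particle differed widely at the RNA level, by 39.2-fold between the highest and the lowest member. Mrpl52, a mitochondrion-specific protein of the large subunit, had the highest level at 278 ± 15.7 TPM (SD, n = 6 libraries), and its lowest library, at 256.5 TPM, was above the highest library of every other member. Mrpl34 followed with 212 ± 21.3 TPM, then Mrps21, the counterpart of a bacterial small subunit protein, with 179 ± 17.1 TPM, and Mrpl2, a core protein near the peptidyl transferase centre, with 149.8 ± 11.8 TPM (SD, n = 6 each). The libraries of neighbours in this order overlapped, since Mrpl34 reached down to 191 TPM, Mrps21 ranged from 149 to 194 TPM and Mrpl2 reached up to 162 TPM. At the other end stood Mrps6 with 7.09 ± 1.55 TPM, Mrpl33 with 10.1 ± 1.75 TPM, Mrpl17 with 10.2 ± 1.06 TPM and Mrps35 with 10.5 ± 0.72 TPM (SD, n = 6 each). These 4 overlapped one another between libraries. The lengths in the table are 7326, 7605 and 8631 bases for Mrpl33, Mrpl17 and Mrps35, against 1109 bases for Mrpl52, and a level per length falls with the length it is divided by.

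**Figure D1:**
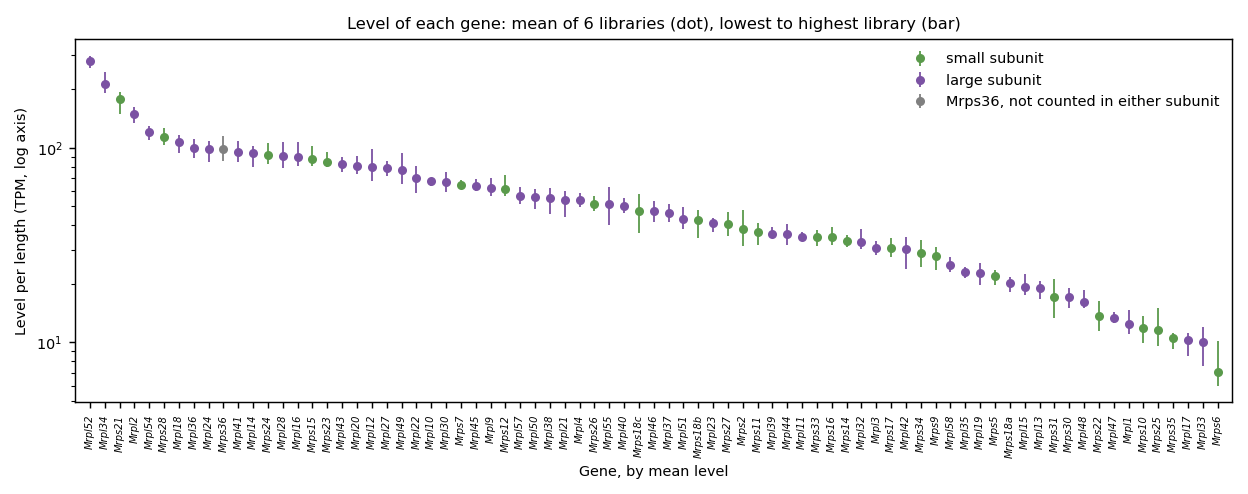
Level per length (TPM, log axis) of the 77 members with counts, ordered by their mean over 6 libraries (dot), with a bar from the lowest to the highest library; green marks the small subunit, purple the large subunit and grey Mrps36. Levels run from 278 TPM for Mrpl52 to 7.09 TPM for Mrps6, and the subunits are mixed along the order.

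Across the 6 libraries, the members varied less than most genes of similar level. The median SD of log2 CPM over the 6 libraries was 0.139 for the 77 members and 0.181 for 3899 other genes. These others had means between 17.7 and 67.7 CPM, within the 5% to 95% range of the members, whose full range was 3.57 to 100.8 CPM. Of them, 69.8% had an SD above the members' median. Counts ranged from 56 to 2048 per library over the 77 members. Mrpl53, the remaining member, had 0 counts in all 6 libraries and was not tested. Of its 790 exon bases, 695 (88.0%) lie in exons of the gene Gm42688 on the same strand, a gene named here after its values were seen, and how the counting treated reads shared by both genes is not known here. Gm42688 had 43, 52 and 62 counts in CBM and 22, 26 and 24 counts in EBM, with no overlap between the regions. Its log2 fold change was -0.97 (SE 0.24, edgeR adjusted p 0.334, DESeq2 adjusted p 0.248). From which gene these reads came was not tested.

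The comparison of EBM with CBM asks whether leukemia cells near the bone surface differ from those in the centre of the marrow. No member differed past the threshold. The edgeR quasi-likelihood test called 0 of the 77 members at an adjusted p under 0.05, against 0% of the 13352 genes tested, and limma-voom called 0 members against 0% of genes. DESeq2 called 0 members against 1.39% of the 12619 genes to which it gave an adjusted p. At an unadjusted p under 0.05 in edgeR, 3 members were higher in EBM (3 of 77, against 4.01% of all genes) and 0 were lower (against 3.9%). The smallest adjusted p of a member was 0.429, for Mrps18b.

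The differences were small in size. The log2 fold changes of EBM over CBM ran from -0.22 to 0.42. The 95% confidence interval of 74 members lay within 1.5-fold in either direction, and that of 76 within 2-fold. The 3 members whose interval reached past 1.5-fold, each on the side of higher levels in EBM, were Mrps18b, Mrpl55 and Mrps6. The median reach of these intervals to either side was 0.29 on the log2 scale. The interval of Mrps6, the member with the fewest counts, ran from -0.16 to 1.0 around its log2 fold change of 0.42, with an edgeR adjusted p of 0.736.

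**Figure D2:**
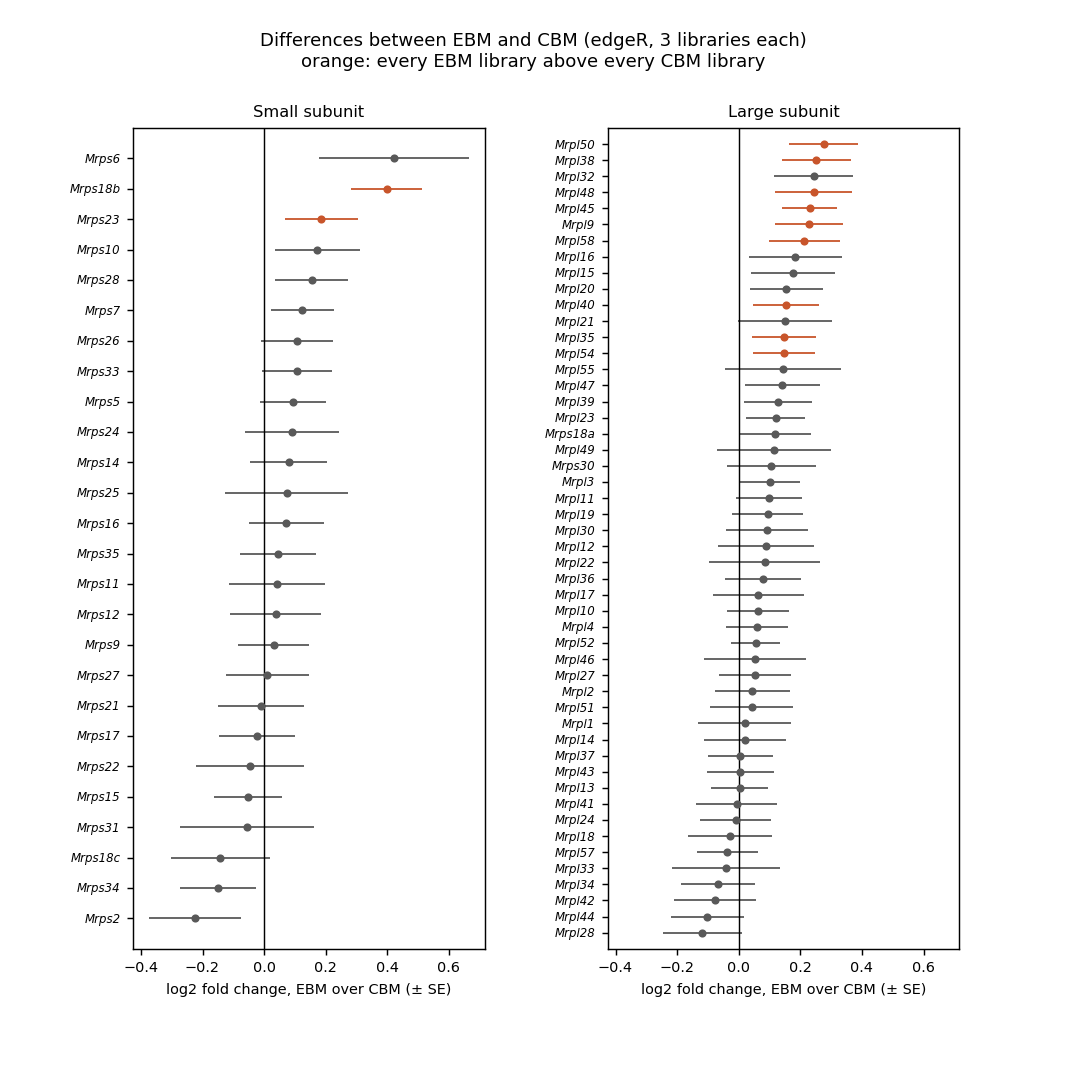
Log2 fold change of EBM over CBM (horizontal axis) with its SE from edgeR, 3 libraries per region, for the 26 small subunit and 50 large subunit genes tested; Mrps36 is not drawn and orange marks genes for which every EBM library lay above every CBM library in TMM-scaled CPM. Most points lie slightly to the right of 0, with a median of 0.06 for the small and 0.09 for the large subunit. Orange marks 11 genes (against 7.47% of all genes tested). On the TPM scale 2 members were higher without overlap, and the share of all genes on that scale is not given. By the ratio of mean TPM 26 of the 77 members were higher (33.8%, against 30.5% of all genes).

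By sign, the members leaned towards EBM. Of the 77, 60 were higher and 17 lower in EBM (77.9% higher, against 50.4% of all genes tested), with a median log2 fold change of 0.08 against 0.00 for all genes. The small subunit had 18 higher and 8 lower with a median of 0.06, and the large subunit 41 higher and 9 lower with a median of 0.09. Every EBM library lay above every CBM library in CPM for 11 members (against 7.47% of all genes), and below for 0 members (against 7.65%). Of the 11, 9 encode large subunit proteins and 2 small subunit proteins. As classed here, 9 are mitochondrion-specific and 2 have a bacterial counterpart, of 29 and 47 tested. Mrps18b was placed in the former class and its paralogs Mrps18a and Mrps18c in the latter.

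The lean rested in large part on single libraries. The number of members higher in EBM also moved with the scaling, as did that of all genes. EBM replicate 3 had the highest value of the 6 libraries for 48 of the 77 members (62.3%, against 23.2% of all genes). CBM replicate 1 had the lowest for 28 (against 18.5% of all genes) and CBM replicate 2 for 22 (against 20.6%). Set against the mean of the CBM libraries, 68 members were higher in EBM replicate 3, 48 in EBM replicate 1 and 38 in EBM replicate 2. Without EBM replicate 3, 38 of 77 members were higher in EBM (49.4%, against 48.5% of all genes), with a median of -0.01 for the members and for all genes alike. Without CBM replicate 1, 50 were higher (64.9%, against 51.4% of all genes) with a median of 0.04. Without any other single library, 60 to 63 were higher. EBM replicate 3 also had the fewest counts and the lowest TMM factor (0.948), the factor by which edgeR corrects a library's total for its composition.

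The direction on an absolute scale depended on that correction. When libraries were scaled by their totals only, 39 of 77 members were higher in EBM (50.6%, against 36.5% of all genes). Their median was 0.00, while the median of all genes was -0.07. By the ratio of mean TPM, 26 were higher (33.8%, against 30.5% of all genes) with a median of -0.03, while that of all genes was -0.10. Relative to the median of all genes in the same setting, between 53 and 64 of the 77 members lay above it in every setting run except 2, with 46 above it without CBM replicate 1 and 40 without EBM replicate 3. The CPM of all 78 members summed to 2782, 2879 and 3033 in CBM and to 2969, 2888 and 3315 in EBM. These sums overlapped between the regions, as did the sums in TPM, which came to 4297, 4428 and 4822 for CBM and to 4308, 4243 and 4586 for EBM. The ratio of EBM to CBM was 1.06 for the CPM sum and 0.97 for the TPM sum.

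**Figure D3:**
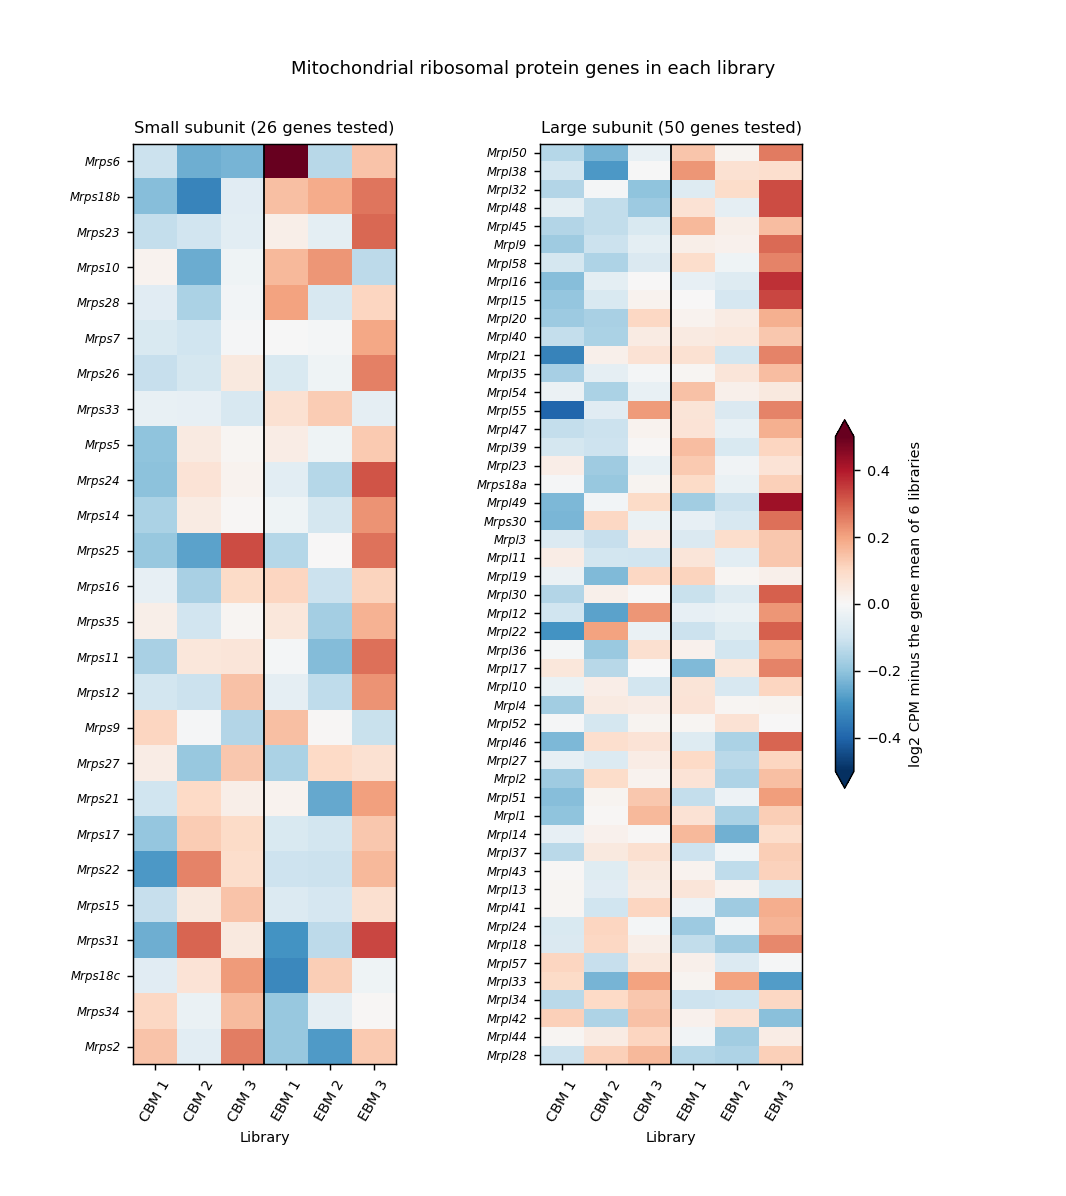
TMM-scaled log2 CPM of each of the 76 subunit genes tested minus its mean over 6 libraries (colour), with CBM libraries left and EBM libraries right of the line and genes ordered by their difference. The last column, EBM replicate 3, is the darkest red for most genes. Without it 38 of the 77 members tested were higher in EBM in place of 60 (49.4%, against 48.5% of all genes). By the ratio of mean TPM 26 were (33.8%, against 30.5% of all genes).

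Among proteins of the small subunit, Mrps18b (ENSMUSG00000024436, chr17:35910379-35916389, minus strand) had the smallest p. It belongs to a family of 3 paralogs related to bacterial protein S18 and was classed here as mitochondrion-specific. Mrps18b had 24.9, 23.0 and 27.7 CPM in CBM and 32.0, 32.8 and 34.7 CPM in EBM, so that the regions did not overlap. The means were 25.2 ± 2.41 CPM for CBM and 33.2 ± 1.37 CPM for EBM (SD, n = 3 libraries each). The log2 fold change was 0.40 (SE 0.11), and edgeR gave a p of 0.0109 before and of 0.429 after adjustment. DESeq2 gave an adjusted p of 0.27. The exact permutation test over the 20 relabellings of the libraries gave a two-sided p of 0.1. This is the smallest that 3 libraries against 3 allow, and the lack of overlap already fixes it. Antisense gene Gm16279 shares 30.5% of the exon bases of Mrps18b on the opposite strand at 4.36 CPM, and the strand setting of the counting is not known here.

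The estimates for the other paralogs of this family were closer to 0. Mrps18c, also in the small subunit, had 15.9, 17.3 and 19.2 CPM in CBM and 13.2, 18.0 and 16.3 CPM in EBM. The regions overlapped, and its log2 fold change was -0.14 (SE 0.16, edgeR adjusted p 0.924). Mrps18a sits in the large subunit in spite of its name and had 24.4, 21.4 and 24.7 CPM in CBM and 26.1, 23.9 and 26.5 CPM in EBM. Its regions overlapped as well, with a log2 fold change of 0.12 (SE 0.12, edgeR adjusted p 0.901). The differences between the paralogs were not tested against each other.

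The other small subunit gene with no overlap between regions was Mrps23, a mitochondrion-specific protein, with 39.4, 40.1 and 41.3 CPM in CBM and 43.7, 41.4 and 52.3 CPM in EBM. The gap between the highest CBM and the lowest EBM library was under 0.1 CPM. On the lower side, Mrps2, the counterpart of bacterial S2, had 39.9, 34.9 and 43.2 CPM in CBM and 31.7, 29.7 and 39.6 CPM in EBM. Its regions overlapped through EBM replicate 3, and the log2 fold change was -0.22 (SE 0.15, edgeR adjusted p 0.789). Mrps34, which binds the small subunit rRNA, had 20.7, 18.8 and 21.5 CPM in CBM and 16.9, 18.7 and 19.4 CPM in EBM. Its regions overlapped, with a log2 fold change of -0.15 (SE 0.12, edgeR adjusted p 0.857). Exons of Mapk8ip3 on the opposite strand cover 63.4% of the exon bases of Mrps34, at 216 CPM against 19.4 CPM for Mrps34 itself. Nme3 on the same strand shares 37.0% of these bases and was at 0 CPM.

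In the large subunit, the genes with the smallest p were Mrpl45, Mrpl50, Mrpl38, Mrpl9 and Mrpl48, all higher in EBM. Mrpl45 (ENSMUSG00000018882, chr11:97315716-97329920, plus strand) encodes a protein at the exit of the peptide tunnel that ties the ribosome to the inner membrane. It had 48.9, 49.7 and 51.3 CPM in CBM and 60.5, 55.2 and 60.2 CPM in EBM, with no overlap. The means were 50.0 ± 1.23 and 58.6 ± 2.97 CPM (SD, n = 3 libraries each), and the log2 fold change was 0.23 (SE 0.09, edgeR adjusted p 0.596). Mrpl50 (ENSMUSG00000044018, chr4:49512596-49521093, minus strand), a mitochondrion-specific protein, had 35, 32.9 and 37.7 CPM in CBM and 42.6, 39.0 and 46.2 CPM in EBM. The regions did not overlap, with means of 35.2 ± 2.38 and 42.6 ± 3.59 CPM (SD, n = 3 libraries each) and a log2 fold change of 0.28 (SE 0.11, edgeR adjusted p 0.611).

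Mrpl38, a mitochondrion-specific protein of the central protuberance, had 42.7, 37.4 and 45.5 CPM in CBM and 53.1, 48.1 and 48.3 CPM in EBM. Its regions did not overlap, and the log2 fold change was 0.25 (SE 0.11, edgeR adjusted p 0.650). Mrpl9, the counterpart of bacterial L9 whose promoter window is printed above, had 48.4, 50.9 and 52.9 CPM in CBM and 55.9, 55.7 and 66.8 CPM in EBM. EBM replicate 3 stood above the other EBM libraries there, and the log2 fold change was 0.23 (SE 0.11, edgeR adjusted p 0.678). Mrpl48 had 41.6, 39.4 and 37.9 CPM in CBM and 45.2, 41.6 and 54.0 CPM in EBM, so that its regions came apart only by a near tie at 41.6 CPM. The log2 fold change of Mrpl48 was 0.24 (SE 0.12, edgeR adjusted p 0.696), and 8.69% of its exon bases lie opposite Rab6a. The exact permutation test gave a two-sided p of 0.1 for each of these 5 genes, a value that the lack of overlap already fixes.

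The remaining members with no overlap were Mrpl58, Mrpl54, Mrpl40 and Mrpl35. Mrpl58 is a peptidyl-tRNA hydrolase built into the large subunit that frees stalled chains, and it had 25.7, 24.6 and 26.0 CPM in CBM and 29.0, 26.9 and 32.5 CPM in EBM. Mrpl40 had 29.9 CPM in its highest CBM library, under 0.1 CPM below its lowest EBM library. Mrpl35 had 31.3 and 31.7 CPM at the same places and Mrpl54 had 32.0 and 33.2 CPM.

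The large subunit genes lower in EBM with the smallest p were Mrpl28, Mrpl44 and Mrpl42, and for all 3 the regions overlapped. Mrpl28, the counterpart of bacterial L28, had 34.8, 40.7 and 42.0 CPM in CBM and 34.0, 33.6 and 40.7 CPM in EBM, a log2 fold change of -0.12 (SE 0.13, edgeR adjusted p 0.924). Mrpl44, which resembles ribonuclease III, had 19.3, 19.8 and 20.7 CPM in CBM and 19, 17.0 and 19.7 CPM in EBM, a log2 fold change of -0.10 (SE 0.12, edgeR adjusted p 0.926). Mrpl42 is mitochondrion-specific and had 39.0, 32.3 and 39.8 CPM in CBM and 36.4, 37.8 and 31.1 CPM in EBM, a log2 fold change of -0.08 (SE 0.13, edgeR adjusted p 0.972).

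The genes named against their place, Mrps30 and Mrps36, had small differences. Mrps30, a large subunit protein, had 31.6, 39.9 and 36.3 CPM in CBM and 36.0, 35.1 and 44.9 CPM in EBM. Its log2 fold change of 0.11 (SE 0.14, edgeR adjusted p 0.946) turned to -0.02 without EBM replicate 3. Mrps36, the dehydrogenase component, had 35.6, 46.9 and 37.6 CPM in CBM and 38.8, 35.5 and 51.9 CPM in EBM. Its log2 fold change of 0.07 (SE 0.18, edgeR adjusted p 0.983) turned to -0.12 without EBM replicate 3, to -0.0055 without CBM replicate 1 and to -0.0038 with library totals only. Regions overlapped for both genes.

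The members with the highest levels showed no separation either. Mrpl52 (ENSMUSG00000010406, chr14:54426909-54429756, plus strand) had 100.3, 94.9 and 102 CPM in CBM and 102, 106 and 101 CPM in EBM, a log2 fold change of 0.05 (SE 0.08, edgeR adjusted p 0.954). Mrpl34 had a log2 fold change of -0.07 (SE 0.12), Mrps21 one of -0.01 (SE 0.14) and Mrpl2 one of 0.04 (SE 0.12). Their regions overlapped in every case. Among the lowest, Mrps6 had 3.24, 2.95 and 2.98 CPM in CBM and 5.24, 3.17 and 3.86 CPM in EBM, so that EBM replicate 1 stood above all other libraries and EBM replicate 2 lay among the CBM libraries. Mrpl33, Mrpl17 and Mrps35 had log2 fold changes of -0.04 (SE 0.18), 0.06 (SE 0.15) and 0.05 (SE 0.12).

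Members were also divided by the ETS core of their promoters, without a test between the groups. The 25 tested members with the core in a promoter had a median log2 fold change of 0.05 with 18 higher in EBM, and the 43 with a promoter and no core had a median of 0.09 with 34 higher. Gabpa, which encodes the factor named above for this core, was at -0.09 (SE 0.10, edgeR adjusted p 0.926). Nrf1 was at 0.19 (SE 0.14, edgeR adjusted p 0.826) and Yy1 at 0.04 (SE 0.11, edgeR adjusted p 0.983). Gabpb1, which encodes a partner subunit of GABPA, had 39.5, 40.3 and 39.2 CPM in CBM and 61.4, 61.5 and 48.96 CPM in EBM. Its log2 fold change was 0.53 (SE 0.12), with an adjusted p of 0.296 in edgeR and of 0.0320 in DESeq2. Myc, which is known to drive ribosome production and binds the E-box, had 133, 108 and 137 CPM in CBM and 53.8, 51.3 and 52.8 CPM in EBM. Its log2 fold change was -1.26 (SE 0.11), with an adjusted p of 0.0583 in edgeR and of 2.45e-13 in DESeq2. Gabpb1 and Myc separated the regions fully. Of the 11 tested regulators of mitochondrial transcription and biogenesis, 12 in the list, 5 were higher and 6 lower with a median of -0.04. At an adjusted p under 0.05, edgeR and limma-voom each called 0 of them (against 0% of all genes). DESeq2 called 2 (against 1.39%), which are Gabpb1 and Myc. At an unadjusted p under 0.05 in edgeR, 1 was higher (against 4.01% of all genes) and 1 was lower (against 3.9%), again Gabpb1 and Myc.

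The mitoribosomal rRNAs, which the members bind, had larger fold changes than any member. The large subunit rRNA, mt-Rnr2, had 211, 229 and 216 CPM in CBM and 326, 323 and 407 CPM in EBM. The regions did not overlap, and the log2 fold change was 0.69 (SE 0.12), with an adjusted p of 0.182 in edgeR and of 7.42e-04 in DESeq2. The small subunit rRNA, mt-Rnr1, had 202, 209 and 206 CPM in CBM and 262, 285 and 361 CPM in EBM. Here too the regions did not overlap, and the log2 fold change was 0.56 (SE 0.13), with an adjusted p of 0.325 in edgeR and of 0.0458 in DESeq2. The libraries were made from RNA depleted of rRNA, so these values are what the depletion left, and its part in the difference was not tested.

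The 13 proteins encoded in mitochondrial DNA, the products of the mitoribosome, had 6 genes higher in EBM and 7 lower, and the median of their log2 fold changes was -0.01. The 2 with the smallest p were mt-Nd5, a subunit of complex I, at -0.20 (SE 0.10, edgeR adjusted p 0.691), and mt-Atp8, a subunit of ATP synthase at under 5 CPM in every library, at 0.63 (SE 0.33, edgeR adjusted p 0.698). The 5 ribosomal proteins of the mitochondrion that have other names, Dap3, Ptcd3, Chchd1, Aurkaip1 and Gadd45gip1, had 4 higher and 1 lower with a median of 0.10. Of these, Aurkaip1 at 0.14 (SE 0.13, edgeR adjusted p 0.877) and Chchd1 at 0.10 (SE 0.11, edgeR adjusted p 0.913) had the smallest p.

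The genes that serve the mitoribosome had no such lean towards EBM by sign. Mitochondrial translation factors, 13 tested of 14, had 4 higher and 9 lower with a median of -0.11. Mtfmt, which formylates the initiator methionyl-tRNA, was at -0.27 (SE 0.10, edgeR adjusted p 0.575) and Tufm, the elongation factor Tu of mitochondria, at 0.24 (SE 0.11, edgeR adjusted p 0.644). Factors of assembly and rRNA modification, 25 tested, had 11 higher and 14 lower with a median of 0.00. Ngrn, which acts on the large subunit rRNA, was at 0.57 (SE 0.14, edgeR adjusted p 0.325), and Mrm2, an rRNA methyltransferase, at -0.90 (SE 0.35, edgeR adjusted p 0.596). The mitochondrial aminoacyl-tRNA synthetases and amidotransferase subunits, 20 tested, had 7 higher and 13 lower with a median of -0.03, and Mars2 was at -0.48 (SE 0.11, edgeR adjusted p 0.310) and Pars2 at -0.51 (SE 0.23, edgeR adjusted p 0.666). These lists were not tested against the members.

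The cytosolic ribosomal protein genes leaned the same way as the members and by more. Of 82 tested, 77 were higher in EBM and 5 lower, their median was 0.19, and every EBM library lay above every CBM library for 39 of them (against 7.47% of all genes), and below for 1, Rpl7a (against 7.65%). In edgeR 0 were called at an adjusted p under 0.05, and DESeq2 and limma-voom called 0 as well. At an unadjusted p under 0.05, edgeR had 4 of the 82 higher (against 4.01% of all genes) and 1 lower (against 3.9%). By the ratio of mean TPM their median was 0.08.

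**Figure D4:**
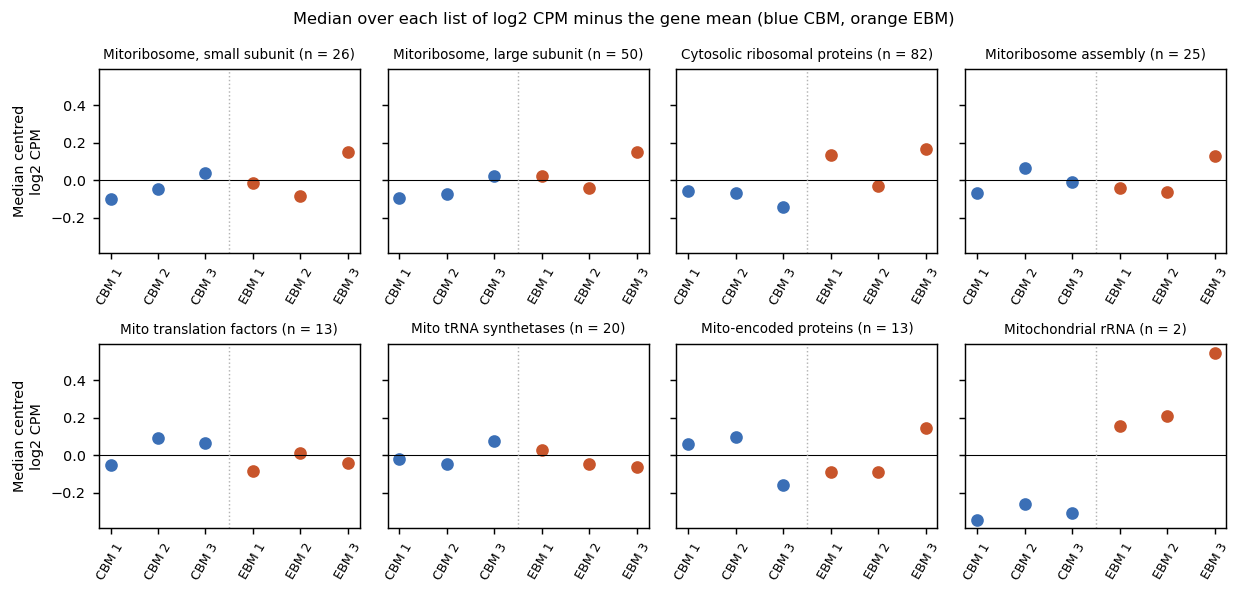
Median over each gene list of TMM-scaled log2 CPM minus the gene's mean (vertical axis), for each of the 3 CBM (blue) and 3 EBM (orange) libraries, with the number of genes tested above each panel. The 2 subunits of the mitoribosome overlap between regions with EBM replicate 3 on top. The mitochondrial rRNA lies apart between regions. The cytosolic ribosomal proteins do so only narrowly, with CBM replicate 1 at -0.06 and EBM replicate 2 at -0.03. All these positions depend on the scaling as described for the members.

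Overlapping genes limit single values. With the strand setting unknown, such overlaps bear on the counts, and 33 members share exon bases with another gene, 28 of them with a gene on the opposite strand and 8 with a gene on the same strand. For 20 of the 28 the CPM of the opposite gene was at least 10% of that of the member. The 20 include Mrpl53, which passes only because it had 0 CPM itself, against 0.47 CPM for the opposite gene Ccdc142os. The widest such overlap was that of Mrps25, in which 69.8% of the exon bases lie opposite Nr2c2. Mrps11 and Mrpl46 are members that overlap each other head to head. Mrps6, the member with the lowest level, shares 19.9% of its exon bases with Gm49711 and 10.4% with Slc5a3, both on the same strand.

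**Figure D5:**
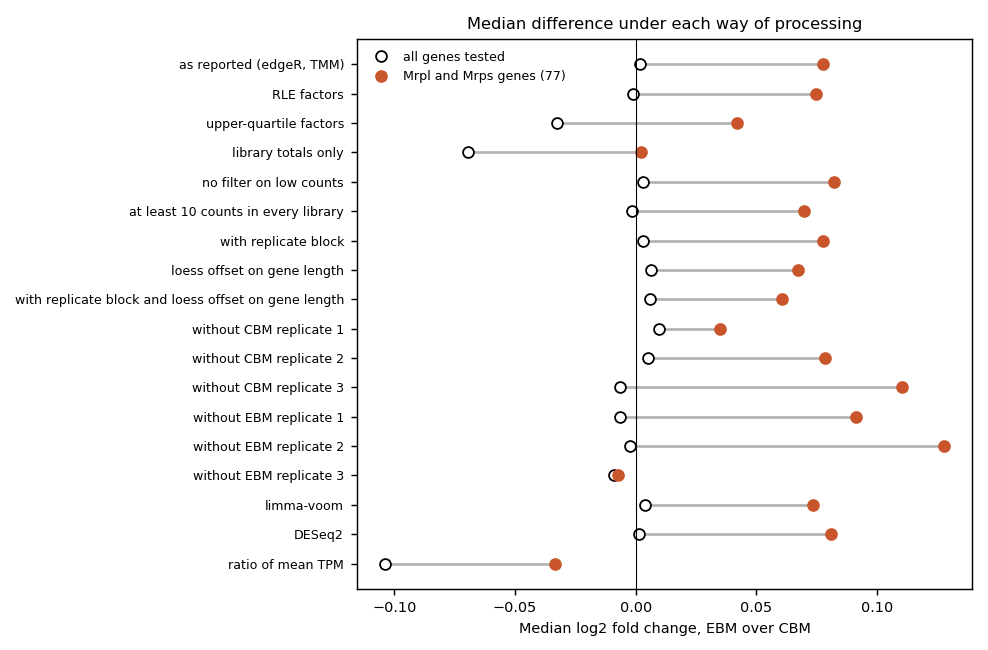
Median log2 fold change of EBM over CBM (horizontal axis) over the 77 members tested (filled) and over all genes tested (open), for the reported fit and each alternative. The filled point lies right of the open point in every row, but by under 0.01 without EBM replicate 3, and it falls left of 0 there and with the ratio of mean TPM.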

How the data were processed

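Total RNA was depleted of rRNA, and 150-bp paired-end reads were made from directional libraries of 3 CBM and 3 EBM samples. The authors deposited raw counts per gene for 54532 genes with gene lengths and coordinates. The submitters' processing notes name HISAT2 2.0.5 and mm10. The counting tool and strand setting are not given in the sources used here. Of the identifiers, 54495 are in GENCODE M21, 53585 with the same coordinates.

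Genes were filtered by filterByExpr of edgeR 4.0.16 (R 4.3.3), which left 13352, scaled by TMM and tested by edgeR's quasi-likelihood test, without a block, at an adjusted p of 0.05 (Benjamini-Hochberg, over all genes). The SE is the absolute log2 fold change over the square root of F. Alternatives were DESeq2 1.42.0, limma-voom (limma 3.58.1), other size factors, other filters, a replicate block, a loess offset on gene length (span 0.3) and each library left out. TPM was computed from the counts and lengths. The fits were tested on simulated data. Exact permutation tests used log2 CPM with a prior count of 2. Intervals are at 95%.

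No label says that the libraries came from separate mice, so p-values measure only the spread between these samples, which may be technical. Libraries of one region differed beyond sampling noise (chi-square per degree of freedom 11.9 to 69.0). The members and lists were chosen with earlier results of these data known. Named were the 6 members with the smallest p in each direction, the 4 highest and 4 lowest levels, the Mrps18 paralogs, Mrps30, Mrps36, members not tested, and the 2 genes of smallest p in each related list. Gabpa, Nrf1 and Yy1 were added because motifs of their products are given above. Subunit and origin were assigned from general knowledge.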

Additional observations from a re-analysis of the deposited data

How the results depend on the processing

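No member was called in any fit. Over all genes, 0 calls in the reported fit became 175 with DESeq2, 40 without a filter on low counts and 1 with a loess offset on gene length. The count of 3 members higher at an unadjusted p under 0.05 became 1 with upper-quartile factors, library totals only, no filter, the length offset, the replicate block with length offset, and DESeq2, and 1 to 3 when a library was left out, and the lower count of 0 became 0 to 1. Members higher without overlap, 11, became 3 with library totals and 2 with TPM, and 12 to 25 when a library was left out. Those lower, 0, became 2, 2 and 0 to 5 in the same order. Over all genes the shares without overlap, 7.47% higher and 7.65% lower in the reported setting, are not given for these alternatives. With a library left out, regions come apart more readily for any gene, so the rise to 12 to 25 is not read as a result about the members. The median over members, 0.08, became -0.033 by TPM ratio (small subunit -0.053, large -0.022), a setting chosen after seeing the data. Leaving out a library moved Mrps30 between -0.024 (without EBM replicate 3) and 0.188, and Mrps36 turned to -0.117 without EBM replicate 3, to -0.0055 without CBM replicate 1 and to -0.0038 with library totals. Of 496 values of single genes under alternatives, 487 kept direction and side of the threshold. Libraries with the same replicate number had deviations correlated at 0.68, -0.20 and 0.20, against -0.67 to 0.51 for those with different numbers. Whether a number marks a shared mouse is not given in the labels and cannot be told from these values. With the replicate block the members' median stayed at 0.08 with 60 higher and 0 called. Depth limits Mrps6 most, at 56 to 95 counts per library.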

Other observations

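Many members lie head to head with another protein-coding gene. Of the 77 tested, 33 (42.9%) have a protein-coding gene on the opposite strand that starts within 1000 bases, against 18.3% of the 10810 protein-coding genes tested. Of these partners, 30 were tested, with 14 higher and 16 lower in EBM and a median log2 fold change of -0.02, while the members in these pairs had a median of 0.05 with 24 higher. Such partners include other mitochondrial genes, among them Ndufs6 (with Mrpl36), Ndufb5 (with Mrpl47), Sars2 (with Mrps12) and Twnk, the mitochondrial DNA helicase (with Mrpl43), and the pair Mrps11 and Mrpl46 is made of 2 members. Counted over the 30 members with a tested partner, the signs of member and partner were the same for 16 and opposite for 14, with the pair of Mrps11 and Mrpl46 counted from either side. Mrpl50 was at 0.28 (SE 0.11, edgeR adjusted p 0.611) and Zfp189, which starts 83 bases away, at -0.78 (SE 0.23, edgeR adjusted p 0.439). Mrps18b was at 0.40 (SE 0.11, edgeR adjusted p 0.429) and Ppp1r10, which starts 45 bases away, at -0.10 (SE 0.13, edgeR adjusted p 0.934). Mrpl43 was at 0.01 (SE 0.11, edgeR adjusted p 0.997) and Twnk at -0.38 (SE 0.13, edgeR adjusted p 0.546). The pairs named were chosen after their values were seen, and the difference within a pair was not tested.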
